A study of Homo sapiens with 2 samples.

Results

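The miR-106b-25 cluster consists of 3 miR hairpins, miR-106b, miR-93 and miR-25, that lie in an intron of MCM7, the gene of a subunit of the helicase that opens DNA for replication. Its mature miRs were picked from the deposited table by name, with the prefix, the arm and the asterisk dropped, and 7 of the 934 listed names belonged to it. K562 is an established human cell line of chronic myelogenous leukemia, and K562/ADM is a stable derivative of it, selected by exposure to rising doses of adriamycin, an anthracycline, and kept in 1000 ng/mL of that drug. The study compared small RNA of untreated K562 with that of K562/ADM to find miRs that differ in multidrug-resistant cells, and there was 1 library of each line. Differences below are therefore between these libraries, with no replicate check, and K562/ADM is a single selected line.

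A mature miR is cut from a hairpin in which either arm can be kept. The strand that is loaded into Argonaute in most cases is the guide, and the other is the passenger. Here the strand whose name carries an asterisk is called the passenger, which in the cluster was the rarer strand of each hairpin. The guide finds messenger RNAs mainly through its seed, bases 2 to 8 from the 5′ end, so that miRs with the same seed have overlapping targets. The cluster is a paralog of the MIR17HG cluster, which runs from miR-17 to miR-92a, is transcribed together with MCM7, a gene switched on by E2F and MYC, and is known for repressing inhibitors of the cell cycle and promoters of cell death such as CDKN1A (p21) and BCL2L11 (BIM).

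The mature sequences of the cluster are shown because they place its guides in different target families. They are RefSeq sequences (GRCh38.p14), written 5′ to 3′ with bases 2 to 8 in capitals.
miR-106b: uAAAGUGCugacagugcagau
miR-93: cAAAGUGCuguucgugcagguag
miR-25: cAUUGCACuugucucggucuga
miR-106b*: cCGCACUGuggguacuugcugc
miR-93*: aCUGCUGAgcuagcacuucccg
miR-25*: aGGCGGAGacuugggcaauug

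The guides of miR-106b and miR-93 share the seed AAAGUGC, while miR-25 carries AUUGCAC. The 3 passenger strands each have a seed of their own. The seed relatives that had reads in large numbers are given next for comparison, the first pair with the seed of miR-106b and miR-93 and the others with that of miR-25.
miR-17: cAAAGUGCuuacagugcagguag
miR-20a: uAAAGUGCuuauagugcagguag
miR-92a: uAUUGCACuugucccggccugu
miR-92b: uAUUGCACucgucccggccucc
miR-32: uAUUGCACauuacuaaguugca

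Counted from the 5′ end without gaps, miR-106b differed from miR-17 and from miR-20a at 3 of 21 positions and from miR-93 at 5 of 21. MiR-93 differed from miR-17 and from miR-20a at 4 of 23 positions. MiR-25 differed from miR-92a at 4 of 22. The sources used here do not say how reads that match several such miRs were assigned, so the split of reads among these relatives carries that uncertainty.

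On GRCh37, MCM7 occupies positions 99689856 to 99699563 of chromosome 7 and is transcribed from the minus strand. All 3 hairpins lie in intron 13 of its transcript MCM7-201, which has 15 exons. MIR106B comes first in the direction of transcription, from 99691616 to 99691697. MIR93 follows after 145 nt, from 99691391 to 99691470, and MIR25 after a further 124 nt, from 99691183 to 99691266. The hairpins span 515 nt of an intron of 771 nt. The sequences of the 6 named arms were each found once within their hairpin on this build. The abundance of MCM7 messenger RNA was not analysed here.

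The libraries held 7677738 mature miR reads in K562 and 6895193 in K562/ADM, of which miR-378 alone held 50.6% and 53.1%. The lineage markers of blood cells had rows for 6 of 8 names, all but miR-150 and miR-155. All 6 were abundant in both libraries, from 1246 reads of miR-223 to 507475 reads of miR-142-3p, both in K562/ADM. Among 9 markers of other tissues, the liver marker miR-122 had 4 reads in each library, and the neuronal miR-124, the epithelial miR-205 and the muscle marker miR-133a had at most 2. Of the other 5, miR-9, also a neuronal marker, was read 7976 and 17882 times in K562 and K562/ADM. In that order miR-145, of smooth muscle and fibroblasts, had 3045 and 6211, and the pancreatic islet marker miR-375 had 196 and 3513. The muscle marker miR-1 had 10 and 22. MiR-9, miR-145, miR-375 and miR-1 were thus higher in K562/ADM by 2-fold or more, whereas the epithelial miR-203 had 66 and 18 and was lower. The part of these markers in the values below was not tested.

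The guides of the cluster were among the abundant miRs of both lines and did not move together. MiR-106b was higher in K562/ADM, whereas miR-93 and miR-25 were lower. Each of these differences was under 2-fold. The passenger strands were lower for all 3 hairpins, and miR-25* had the largest difference among the names of the cluster with over 100 reads in both libraries. The directions of miR-93, miR-25 and miR-106b* held under 4 of the 5 other scalings of the libraries and turned under upper-quartile scaling, while that of miR-106b was the same under all 5.

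MiR-106b, which targets CDKN1A, was read 37356 times in K562 and 39266 times in K562/ADM. After division by the size factor of each library, the values of the authors were 33757 and 43452. Its value in K562/ADM relative to K562, the ratio used throughout, was 1.29 (95% interval 1.27 to 1.31), where the interval is the exact Clopper-Pearson interval of the reads and covers counting error only. Under upper-quartile scaling it was 2.15, which passes 2-fold. By number of reads miR-106b ranked 19 of the 934 names in K562 and 15 in K562/ADM.

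MiR-93, which has the same seed, had 29414 and 17712 reads, or 26580 and 19600 after scaling. Its ratio of 0.737 (0.724 to 0.751) lay on the other side of 1 from that of miR-106b, and it fell from rank 25 to rank 32. MiR-25, the seed relative of miR-92a, had 32687 and 17006 reads, or 29538 and 18819 after scaling. Its ratio was 0.637 (0.625 to 0.649), which is 1.57-fold lower (1.54 to 1.60), and it fell from rank 22 to rank 34.

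The passenger names were far less abundant. MiR-25* was read 2006 and 455 times in K562 and K562/ADM, or 1813 and 504 after scaling, and was 3.60-fold lower (3.25 to 3.99). MiR-106b* had 1303 and 721 reads, or 1177 and 798 after scaling, with a ratio of 0.678 (0.618 to 0.743). MiR-93* was rare, with 52 and 22 reads, or 47.0 and 24.3 after scaling, and a ratio of 0.518 (0.300 to 0.868). The order of miR-25* and miR-106b* was thus exchanged between the libraries.

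A further name, mir-25*, is spelled with a small letter and stands beside miR-25* in the table. The meaning of its asterisk is not stated in those sources, and no sequence was assigned to it. It was read 17 times in K562 and 1 time in K562/ADM, a ratio of 0.0720 (0.00172 to 0.460). Adding 1 to the scaled values brought this ratio to 0.129, so that its size is poorly known.

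**Figure D1:**
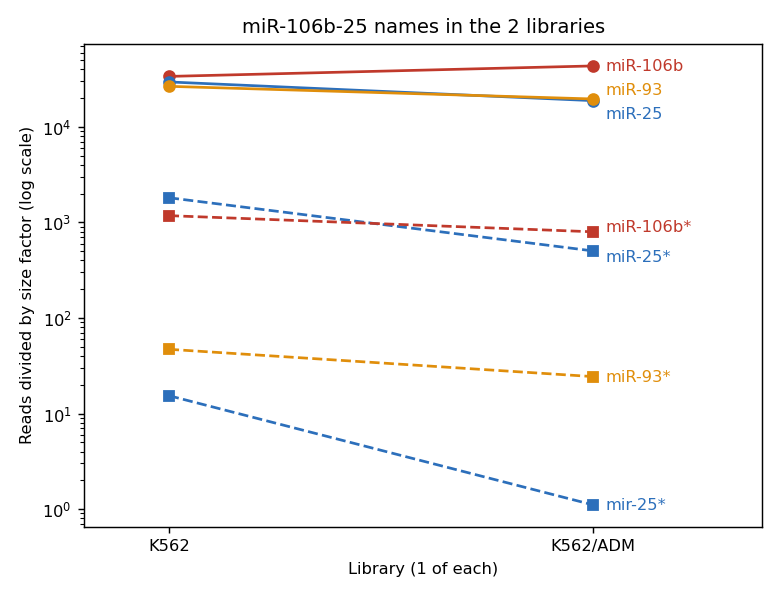
Deposited values (reads divided by the size factor, y axis, log scale) of the 7 names of the cluster in the K562 and K562/ADM libraries (x axis). Circles and solid lines are guides, squares and dashed lines are names with an asterisk. Only the line of miR-106b rises, from 33757 to 43452 (under upper-quartile scaling miR-93, miR-25 and miR-106b* would rise too), and the lines of miR-25* and miR-106b* cross.

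A call required a difference of 2-fold or more together with an interval that left out 1. By this rule 2 of the 7 names were lower, miR-25* and mir-25*, and 0 were higher, against 15.6% of all 934 names lower and 11.1% higher. Both called names belong to the miR-25 hairpin, so they are not independent, and mir-25* had only 17 reads in K562 and 1 in K562/ADM. Among all names 146 were lower and 104 higher, and upper-quartile scaling changed this split to 95 lower and 223 higher. The intervals of all 7 excluded 1, with 1 above and 6 below it, against 19.9% above and 23.9% below over all names. In either direction 43.8% of all names had such an interval, but among the 169 names that reached 1000 reads this was 92.9%, so that an interval apart from 1 sets abundant names such as these guides little apart. The median log2 ratio of the 7 names was -0.65, beside -0.08 for the 604 names that had 10 or more reads when both libraries were added.

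Because the hairpins share an intron and each library was sequenced as a whole, the guides can be compared within a library, where no scaling between the libraries enters. MiR-106b made up 37.6% of the reads of the 3 guides in K562 (95% interval 37.3 to 37.9) and 53.1% in K562/ADM (52.7 to 53.4). MiR-25 went from 32.9% (32.6 to 33.2) to 23.0% (22.7 to 23.3), and miR-93 from 29.6% (29.3 to 29.9) to 23.9% (23.6 to 24.2). The order was miR-106b, miR-25, miR-93 in K562 and miR-106b, miR-93, miR-25 in K562/ADM. Neighbours in either order did not overlap in their counting intervals, while the spread between libraries of a line is not known.

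The number of miR-106b reads per miR-25 read was 1.14 in K562 and 2.31 in K562/ADM, a change of 2.02-fold (exact conditional 95% interval 1.97 to 2.07). Relative to miR-93, miR-106b went from 1.27 to 2.22, a change of 1.75-fold (1.71 to 1.79). MiR-93 and miR-25 stayed closer to each other, with a change of 1.16-fold (1.13 to 1.19). The divergence inside the cluster was therefore mostly between miR-106b, the hairpin transcribed first, and the other two.

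The reads of all 7 names together came to 102835 in K562 and 75183 in K562/ADM, which was 1.34% and 1.09% of all mature miR reads. After scaling their ratio was 0.895 (0.887 to 0.904). The falls of miR-93 and miR-25 together were larger than the rise of miR-106b, except under upper-quartile scaling, where neither fell and the summed ratio was 1.499.

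**Figure D2:**
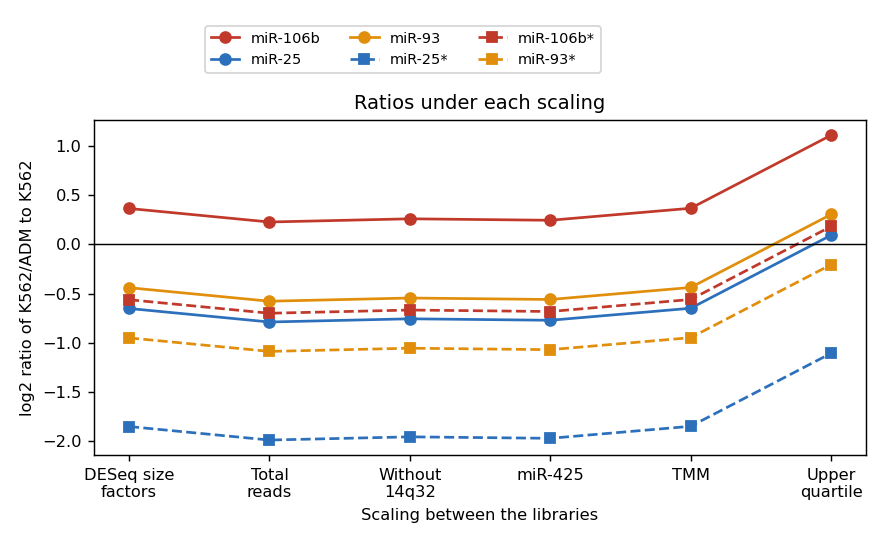
Log2 ratio between K562/ADM and K562 (y axis) of 6 names of the cluster under 6 ways of scaling the libraries (x axis), with guides as circles and passenger strands as squares. The lines join values of 1 name and run in parallel, and only under upper-quartile scaling do miR-93, miR-25 and miR-106b* lie above 0. The name mir-25*, with 1 read in K562/ADM, is not drawn.

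The strand balance moved in the same direction in all 3 hairpins, with fewer passenger reads per guide read in K562/ADM. In the miR-25 hairpin the passenger took 5.78% of the reads of both strands in K562 (5.54 to 6.03) and 2.61% in K562/ADM (2.37 to 2.85). The passenger-to-guide ratio was 2.29-fold lower in K562/ADM (exact conditional 95% interval 2.07 to 2.55). In the miR-106b hairpin the passenger share went from 3.37% (3.19 to 3.56) to 1.80% (1.67 to 1.94), and the ratio was 1.90-fold lower (1.73 to 2.09). The ratios of the guide and the passenger of miR-106b lay on opposite sides of 1, except under upper-quartile scaling, where both were above it (2.15 and 1.13). In the miR-93 hairpin, where the passenger is a trace strand, the share was 0.176% (0.132 to 0.231) and 0.124% (0.0778 to 0.188), and the interval of the 1.42-fold difference held 1 (0.849 to 2.46).

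Lower passenger shares were common outside the cluster too. Hairpins were taken where a name and the same name with an asterisk each reached 50 reads over both libraries, with reads in each. Of 52 other such hairpins, 35, or 67.3%, had a lower passenger-to-guide ratio in K562/ADM, with a median log2 change of -0.22. Arms named as miR-142-5p and miR-142-3p, and names with a copy number such as miR-92a-1* and miR-19b-1*, were left out. MiR-92a-1* was at 0.143 beside 0.513 for miR-92a, and miR-19b-1* at 0.258 beside 0.648 for miR-19b. These pairs have no place in the ranks below, and other pairs left out were not examined. In 8 of the 52 the strand named with an asterisk had more reads than the other over both libraries, among them miR-144 and miR-223, so that it was not the rarer strand there. Without these 8 the passenger-to-guide ratio was lower in 31 of 44 hairpins, or 70.5%. The log2 changes of the cluster were -1.20 for miR-25, -0.93 for miR-106b and -0.51 for miR-93. Ordered from the lowest change among all 55 hairpins, these ranked 8, 11 and 19, and 7, 10 and 18 of 47 without those 8. The middle range of the other hairpins, between their quartiles, ran from -0.63 to 0.21, so that miR-25 and miR-106b lay below it and miR-93 inside it.

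**Figure D3:**
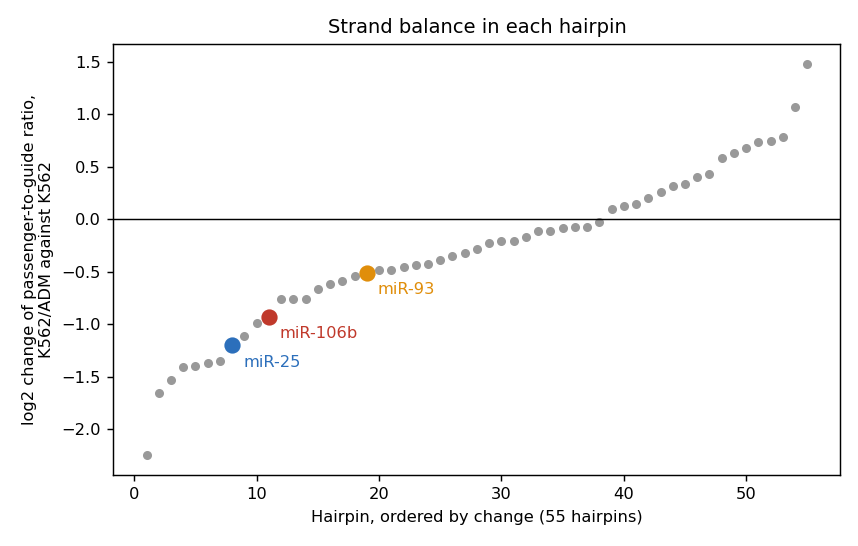
Log2 change of the passenger-to-guide read ratio from K562 to K562/ADM (y axis) in 55 hairpins, ordered by that change (x axis). Only pairs of a name and the same name with an asterisk are included. Large coloured points are the cluster and small grey points the other hairpins. All 3 cluster points lie below 0, at -1.20, -0.93 and -0.51, as do 35 of the other 52.

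The seed relatives show how much of each seed the cluster supplied. A RefSeq mature sequence was found by name for 803 of the 934 names, and only these were searched for the seeds. Among them AAAGUGC was carried by 8 names with 292571 reads in K562 and 176845 in K562/ADM. Nearly all of these reads were from miR-20a, miR-106b, miR-17 and miR-93. Their summed ratio after scaling was 0.740 (0.736 to 0.745), and 1.24 under upper-quartile scaling. The cluster supplied 22.8% of these reads in K562 (22.7 to 23.0) and 32.2% in K562/ADM (32.001 to 32.44). Before scaling, the cluster had 66770 reads with this seed in K562 and 56978 in K562/ADM, a smaller relative change than in the whole family. These counts are not adjusted for library depth. After division by the size factors, miR-106b went from 33757 to 43452 and miR-93 from 26580 to 19600, so the rise was larger than the fall. The direction of their sum depends on the scaling, whereas the share does not. MiR-106b went from 12.8% to 22.2% of the family, whereas miR-93 held 10.1% and 10.0%. MiR-20a, of the MIR17HG cluster, remained the main carrier and went from 65.7% to 53.1%, with 192316 reads in K562 and 93836 in K562/ADM.

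Among the carriers of AAAGUGC, miR-106b was the only one with at least 1000 reads whose ratio was above 1, except under upper-quartile scaling. MiR-20a had a ratio of 0.598 (0.593 to 0.602), close to that of miR-25 in size. MiR-17, which differs from miR-106b at 3 positions, had 33479 and 26023 reads and a ratio of 0.952 (0.937 to 0.967). Per miR-17 read, miR-106b rose 1.35-fold (1.32 to 1.38) and miR-93 changed 0.775-fold (0.756 to 0.794), and both comparisons are free of the scaling. The other 4 carriers, miR-106a, miR-20b, miR-519d and miR-526b*, had at most 4 reads in either library.

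Among the names searched, the seed AUUGCAC was carried by 5, with 183578 and 93533 reads. Their summed ratio was 0.624 (0.619 to 0.629), which was 1.04 under upper-quartile scaling. MiR-25 supplied 17.8% of those reads in K562 (17.6 to 18.0) and 18.2% in K562/ADM (17.9 to 18.4), so that its fall was nearly that of the family as a whole. MiR-92a was the main carrier, with 69.8% and 57.4%, and a ratio of 0.513 (0.508 to 0.518). MiR-32, from another chromosome, was the exception, with 17761 and 19968 reads and a ratio of 1.38 (1.35 to 1.405). There were 1.84 reads of miR-25 per read of miR-32 in K562 and 0.852 in K562/ADM. MiR-92b, with 5048 and 2879 reads, had a ratio of 0.698 (0.667 to 0.731), and miR-363 had 0 and 1 read.

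**Figure D4:**
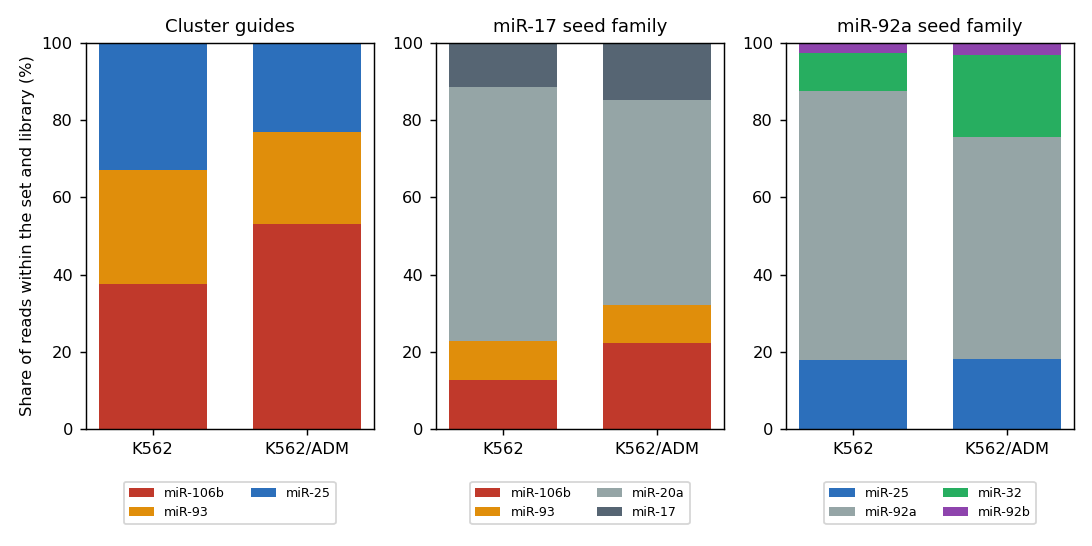
Share of reads (y axis, %) of each guide within the 3 cluster guides (left), the carriers of AAAGUGC (middle) and the carriers of AUUGCAC (right), in K562 and K562/ADM. MiR-106b grows from 37.6% to 53.1% of the cluster guides and from 12.8% to 22.2% of its seed family, while miR-25 stays near 18% of its own. Carriers with at most 4 reads are not drawn.

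The paralogous MIR17HG cluster on chromosome 13, which holds relatives of all 3 guides, had 15 names, of which 5 were called lower and 0 higher, against the 15.6% lower and 11.1% higher of all names. Its median log2 ratio was -0.96, or -0.22 under upper-quartile scaling, beside -0.08 and 0.66 for all names. Its abundant guides also spread, from 0.952 for miR-17 and 0.819 (0.813 to 0.826) for miR-18a to 0.513 for miR-92a and 0.466 (0.456 to 0.476) for miR-19a, with miR-19b at 0.648 (0.637 to 0.659). None of these 6 guides, miR-20a included, had a ratio above 1, which miR-106b did, except that upper-quartile scaling put miR-17 at 1.59, miR-18a at 1.37, miR-19b at 1.08 and miR-20a at 1.00. Its passenger strands included ratios as low as 0.353 (0.318 to 0.390) for miR-20a*, 0.258 (0.243 to 0.273) for miR-19b-1* and 0.143 (0.120 to 0.170) for miR-92a-1*, beside 0.278 for miR-25*. Higher values were found for miR-18a* at 0.606 (0.564 to 0.650) and for miR-17*, an abundant passenger, at 0.827 (0.811 to 0.843). The name mir-17*, spelled with a small letter as is mir-25*, was at 0.434 (0.383 to 0.490). The other paralog, miR-106a-363 on chromosome X, had 7 names counted to it and at most 28 reads for any of them. Thus miR-106a, miR-20b and miR-363 were scarcely detected beside the cluster in MCM7. MiR-19b and miR-92a come from both paralogs and were counted with MIR17HG, so their reads cannot be split between the 2.

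**Figure D5:**
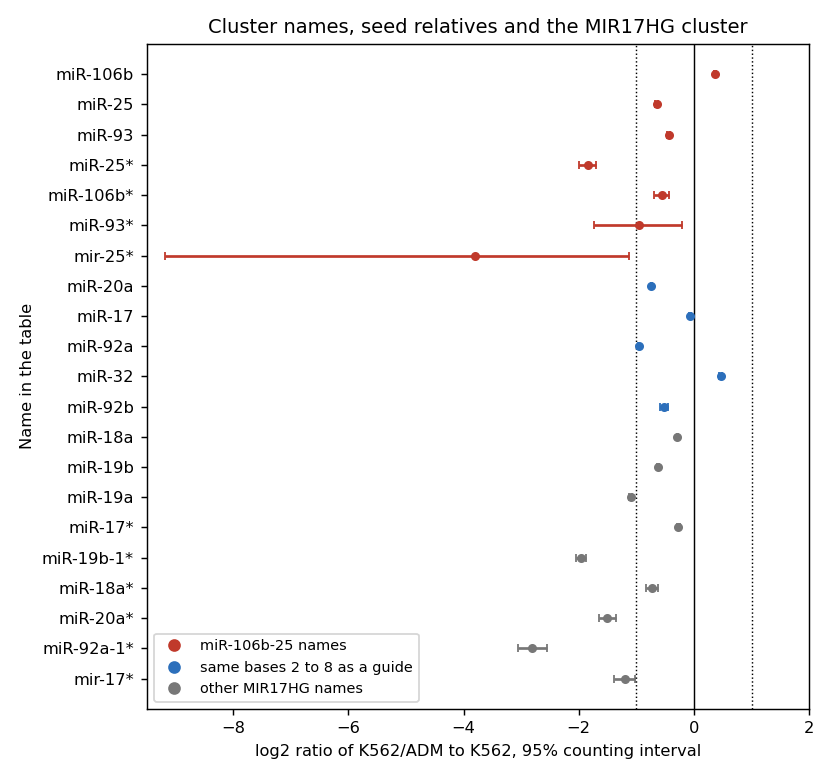
Log2 ratio between K562/ADM and K562 (x axis) with 95% counting intervals for the names of the cluster (red), the seed relatives with at least 1000 reads (blue) and the other MIR17HG names with at least 1000 reads (grey). The solid line marks equality and the dotted lines 2-fold. MiR-106b and miR-32 lie right of the solid line, and the widest bar is that of mir-25*, with 1 read in K562/ADM.

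Names next to the guides in abundance had unlike ratios. In K562, miR-106b stood between miR-183, with a ratio of 1.454 (1.43 to 1.47), and miR-17. MiR-25 stood between miR-7, at 0.357 (0.349 to 0.365), and miR-425, the reference of the study, at 1.09 (1.07 to 1.10). MiR-93 stood between the erythroid miR-451, at 0.793 (0.779 to 0.808), and miR-19a. In K562/ADM, miR-106b stood between miR-183 and miR-144*, at 1.02 (1.00 to 1.03), and miR-24, at 2.41 (2.35 to 2.48), separated miR-93 from miR-25. The name above miR-93 there was miR-9, at 2.75 (2.67 to 2.82), and the name below miR-25 was miR-186, at 1.36 (1.33 to 1.39).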

How the data were processed

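The small RNA of K562 and of K562/ADM was sequenced as 36-base reads, with 1 library per line. The authors grouped reads into unique sequences, left out singletons, removed the adapter and used Bowtie, within miRanalyzer, to map against miRBase 16. The submitters' notes also name CASAVA 1.7.0, DESeq and hg18. The deposited signal of a library holds its counts over its DESeq size factor. Values were divided by the lowest nonzero value of their column, and all came out as whole reads (tolerance 0.001). That lowest value was taken as 1 read, and the product of both was 1.00, as for the size factors of a pair of libraries by the median of ratios. With it 100 names in K562 and 124 in K562/ADM have 1 read, and no source used here says how these remained after singletons were left out. Columns of fold changes and p-values hold the authors' comparison and were not used.

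Ratios of the deposited values were given exact intervals. With 1 library per line no degrees of freedom remain for a count model, and none was fitted. The 92 names on 14q32 were found through RefSeq symbols (GRCh38.p14). Names were tied to RefSeq arms by hand for 16 names. MiR-19b-2* was counted with its own locus. Members, lists and tests were chosen with earlier results of these data known. The rule for names gave all members, relatives with at least 1000 reads and neighbours in abundance. Tissue markers, rarer seed relatives, miR-378 and 2 hairpins with an abundant asterisk strand are named outside it. MiR-378 and those hairpins were named after their values were seen. On simulated libraries of 934 names, drawn with counting error alone and a known scaling, 97.4% of intervals held the true ratio. This checks the computation only, since variation between libraries and errors of scaling were not simulated. Alternatives were other scalings, call rules and read minimums. Python 3.11.15, scipy 1.17.1 and edgeR 4.0.16 (scaling factors) were used.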

Additional observations from a re-analysis of the deposited data

How the results depend on the processing

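The ratio of the summed reads of the cluster was 0.895 with the size factors of the authors, 0.897 with TMM, 0.814 with total reads, 0.824 with miR-425 as reference, 0.833 without the 14q32 names in the scaling, 1.499 with the upper quartile and 0.911 for the guides alone. Upper-quartile scaling raised every log2 ratio by 0.74 and the median of all names from -0.08 to 0.66. There 1 name of the cluster was called higher, miR-106b at 2.15, miR-93 stood at 1.23, miR-25 at 1.07 and miR-106b* at 1.13, and over all names 223 were higher and 95 lower. The order of the members could not change under any scaling, since each moves all log2 ratios by the same amount. The other 4 scalings kept 1 member above and 6 below 1. They moved log2 ratios by -0.14 to 0.00. With total reads, with miR-425 and without 14q32, 3 members were called lower, with miR-93* added. Over all names the lower calls rose as well, from 146 to 165, 163 and 163 in that order. The higher calls over all names fell from 104 to 93, 94 and 95. With a limit of 1.5-fold 4 members were lower, and over all names 182 were lower and 135 higher. By fold alone 236 of all names were higher and 275 lower. With the main rule and at least 50 reads, 62 were higher and 104 lower. Without the 14q32 hairpins, a choice made after seeing the data, the median log2 change of the passenger-to-guide ratio of the other hairpins was -0.28 in place of -0.22, and it was again -0.22 without the 8 hairpins whose asterisk strand had more reads, also chosen after seeing the data. For miR-93* and mir-25* the reads limit the precision. No paired analysis was possible because each line has 1 library.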

Other observations

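The study searched for miRs that act on the 3′-UTR of MDR1 (ABCB1), the gene of the drug pump P-gp, so the guides' seeds were looked up there by letters alone, on the strand of the messenger RNA, in canonical GENCODE transcripts on GRCh37. The match to bases 2 to 8 is GCACTTT for miR-106b and miR-93 and GTGCAAT for miR-25, and each contains the shorter match to bases 2 to 7, CACTTT or TGCAAT. The 3′-UTR of ABCB1, 1226 nt long, held 0 full matches for either seed. It held 1 short match for miR-106b and miR-93, at nucleotide 803 (chromosome 7, 87132751 to 87132756). The reporter of the paper carried a segment of the MDR1 3′-UTR that is shorter than the 3′-UTR searched here. Whether that segment holds the short match was not tested. The site is shown with the match in capitals.
ABCB1: ttgataatgaatCACTTTtgccagtaatt

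Of the first 1226 nt of 8818 3′-UTRs at least that long, 46.3% held CACTTT, 18.8% GCACTTT, 28.9% TGCAAT and 8.89% GTGCAAT, so a short match of this kind is frequent. Known targets of the cluster are shown beside it to let the context be compared. CDKN1A and E2F1 each held 2 full matches for miR-106b and miR-93. BCL2L11 held 2 for miR-25 and also 1 for miR-106b and miR-93. The first match of CDKN1A and of E2F1 and the first miR-25 match of BCL2L11 are given here.
CDKN1A: agtaaacagatgGCACTTTgaaggggcctc
E2F1: ggggctctaactGCACTTTcggcccttttg
BCL2L11: ccaaatgtctgtGTGCAATtgtgtttcctt

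They lie on GRCh37 at nucleotides 36654045 to 36654051 of chromosome 6 (plus strand), 32264145 to 32264151 of chromosome 20 (minus strand) and 111924503 to 111924509 of chromosome 2 (plus strand). Among windows as long as these 3′-UTRs (1532, 1255 and 4213 nt), 23.2% and 19.2% held GCACTTT and 27.6% held GTGCAAT. No abundance of these messenger RNAs was analysed here, and a match of letters is not a test of targeting.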
